A study of Mus musculus with 15 samples.

Results

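The genes described here are Tuba1b, Rpl13a, Hsp90ab1 and Nono, which serve general functions of growing cells: a tubulin, a ribosomal protein, a chaperone and a nuclear RNA-binding protein. The array carries each of them on 20 spots, under the RefSeq transcripts NM_011654.2 (Tuba1b), NM_009438.4 (Rpl13a), NM_008302.3 (Hsp90ab1) and NM_023144.2 (Nono). They are 4 of 59709 probes, and 11 other probes were spotted as often, so the spot count alone did not set them apart. They were chosen by name, with earlier results of these data known. The study followed liver development in C57BL/6 mice with 1-colour Agilent arrays for messenger and long non-coding RNAs. Livers came from fetuses at E12.5, E14.5 and E17.5 (E for embryonic day), from newborn mice, whose exact age the labels do not give, and from adults of 8 weeks. No treatment or altered allele is named for any group. Each of the 5 stages has 3 arrays, 15 in all, with no word in the labels on whether they hold separate animals, pooled livers or repeats of 1 RNA. The p-values therefore cover no more than the spread among these arrays, part of which may be technical.

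Tuba1b encodes an alpha-tubulin, which pairs with beta-tubulin to build microtubules, the filaments of the mitotic spindle and of transport within cells. Rpl13a encodes a protein of the large ribosomal subunit. Hsp90ab1 encodes the constitutively made cytosolic HSP90, a chaperone that folds kinases, steroid receptors and other client proteins. Nono binds RNA and DNA and is a core protein of paraspeckles, nuclear bodies built around a long non-coding RNA. The fetal liver is a fast-growing organ that houses blood formation, mostly of red cells, before the bone marrow takes over, while the adult liver is made mainly of hepatocytes that seldom divide.

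The promoters of Tuba1b, Rpl13a and Nono are printed here so that the sequence before each start can be read beside its course. They are the 250 bases before the annotated transcript start, 5′ to 3′ on the gene's strand, from RefSeq on build GRCm38.p6. That set holds 3 of the 4 genes and has no entry for Hsp90ab1, which is the only reason it is left out. Capitals mark matches to 2 of 5 motifs that were searched on both strands.

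Tuba1b, chr15:98934391-98934640, minus strand: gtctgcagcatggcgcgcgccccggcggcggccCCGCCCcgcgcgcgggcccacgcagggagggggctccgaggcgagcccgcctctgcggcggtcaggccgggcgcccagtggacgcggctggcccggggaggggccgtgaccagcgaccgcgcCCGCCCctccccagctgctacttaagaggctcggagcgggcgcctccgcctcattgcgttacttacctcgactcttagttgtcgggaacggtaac
Rpl13a, chr7:45128746-45128995, minus strand: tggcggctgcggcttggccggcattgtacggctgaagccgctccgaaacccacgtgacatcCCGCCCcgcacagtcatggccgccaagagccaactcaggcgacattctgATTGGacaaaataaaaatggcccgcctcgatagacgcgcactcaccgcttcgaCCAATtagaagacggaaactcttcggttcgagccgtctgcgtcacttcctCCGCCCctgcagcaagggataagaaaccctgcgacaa
Nono, chrX:101429401-101429650, plus strand: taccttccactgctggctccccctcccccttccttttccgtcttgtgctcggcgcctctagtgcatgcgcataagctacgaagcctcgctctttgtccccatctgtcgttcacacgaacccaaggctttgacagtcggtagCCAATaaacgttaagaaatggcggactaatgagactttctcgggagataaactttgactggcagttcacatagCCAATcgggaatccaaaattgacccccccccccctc

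The Tuba1b window is the richest of the 3 in G and C, at 75.6%, against 58.8% for Rpl13a and 53.2% for Nono and a median of 52% over 27025 mouse promoters of the same length. It holds 2 GC boxes (GGGCGG), both on the opposite strand, so that the printed strand shows CCGCCC. Rpl13a holds 2 GC boxes and 2 CCAAT boxes (CCAAT, or ATTGG on the opposite strand), and Nono holds 2 CCAAT boxes. A GC box stands in 32.9% of all promoters of this length and a CCAAT box in 34.5%. TATAAA, which 3504 of the 27025 promoters hold, AAGATGG (4.53%) and CCGGAAG (7.05%) were searched too and are not in these 3 windows. No motif was found in all 3 windows. The matches describe the letters only.

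A level below is the log2 of the processed signal, averaged over a probe's spots on an array, minus the 75th percentile of that array's probes, so a level of 5 is a signal 5 doublings above that percentile. All 4 genes were bright: every spot used stood well above background, none was saturated, and 16 to 20 of the 20 spots were used on each array. The coefficient of variation over an array's spots had a median between 4.03% (Rpl13a) and 5.08% (Hsp90ab1), and reached 12.9% for Tuba1b on E12.5 replicate 1. The spread between the arrays of a stage was often larger than that, so it, and not the spots, sets the precision below. Probes differ in how strongly they bind, so the levels of different genes are not compared.

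Slides were not read from a label. The file headers give 2 scan dates, and the arrays that share a date are called a slide here. Whether such arrays lie on 1 glass slide was not checked, so slide means scan date throughout. The first slide holds 8 arrays, namely the E12.5 and E14.5 arrays with E17.5 replicates 1 and 2. The second holds 7, E17.5 replicate 3 and all neonatal and adult arrays. Stage and slide therefore separate only through E17.5 replicate 3, a single array that cannot settle which of them a difference follows. A pair of arrays stood apart. E12.5 replicate 1 had a 75th percentile of 155 signal units against 288 and 289 on its companions. It was not the lowest of all arrays: adult replicates 3 and 1 had 145 and 162, against 232 on adult replicate 2. E17.5 replicate 1 had 80.9% of spots well above background against 50.9% to 62.9% on the others. On E17.5 replicate 1 the negative-control spots were raised too. There 55.8% of them were well above background, against 4% to 9.58% on the others, and their median signal was 37.1, against 3.47 to 6.53. The tissue label could not be checked against hepatocyte markers, since none of 7 carries a gene symbol here, and only 75 gene symbols were among the tested features. Of 9 markers of red cell precursors, Tfrc alone was measured by name. None of the 8 further tubulins, 12 ribosomal proteins, 12 chaperones and 6 paraspeckle genes listed as their pathway partners was measured by name.

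**Figure D1:**
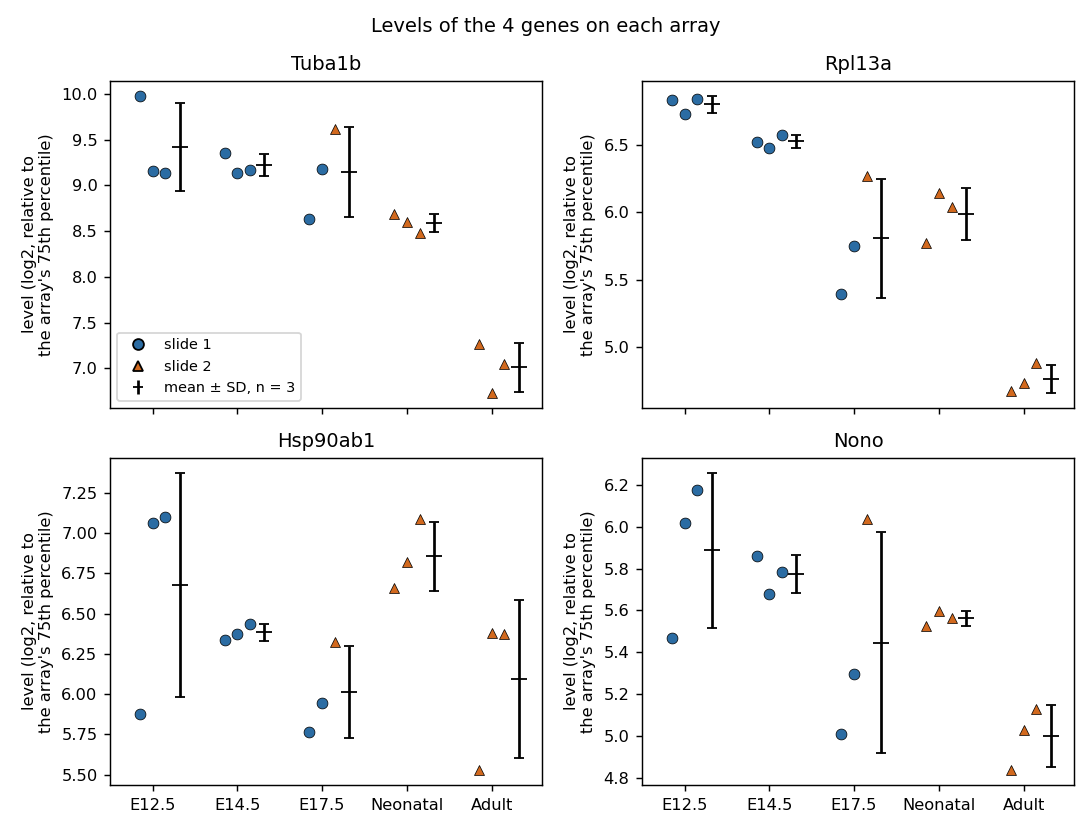
Level of each gene (log2, relative to the array's 75th percentile) on each of the 15 arrays by stage, with replicates 1 to 3 from left to right, circles for slide 1, triangles for slide 2, and the stage's mean ± SD (n = 3) beside them; the vertical axes differ and do not start at 0. Adult Tuba1b (6.73 to 7.26) and Rpl13a (4.68 to 4.88) lie below all their other arrays, while adult Hsp90ab1 (5.53 to 6.38) overlaps all 3 fetal stages.

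Tuba1b and Rpl13a were the members with the clearest course: both were at their lowest in adult liver, 5.31 and 4.08 times below E12.5. Nono was also lower in the adult than at E12.5, by 1.85-fold. Hsp90ab1 did not pass the test between any pair of consecutive stages, nor between adult and E12.5. So 3 of the 4 members were called lower in adult than E12.5 liver at an adjusted p under 0.05, where 25.1% of all 37357 tested features were. The median change of the 4 was -1.46 on the log2 scale, beside -0.04 over all features tested. Here and below the test is limma's moderated test with Benjamini-Hochberg adjustment over all tested features. Without both arrays that stood apart, a choice made after seeing the data, the log2 differences of adult against E12.5 were -2.13 (Tuba1b), -2.01 (Rpl13a), -1.10 (Nono) and -0.99 (Hsp90ab1), and all 4 were called. With slide as a term, which rests on E17.5 replicate 3 alone, they were -3.12, -2.72, -1.77 and -1.06, and Hsp90ab1 was not called. In whole liver, fewer cells of a type and less RNA per cell cannot be told apart.

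Tuba1b, the tubulin, passed no test between fetal stages and was called lower in the adult than at every other stage. Its level was 9.98, 9.15 and 9.13 on the E12.5 arrays, 9.35, 9.14 and 9.17 at E14.5, and 8.63, 9.18 and 9.62 at E17.5. The neonatal arrays gave 8.68, 8.60 and 8.48, and the adult arrays 7.26, 6.73 and 7.04. The fetal stages overlapped, the neonatal arrays lay just around the lowest fetal one, and the adult arrays lay far below the rest. The mean went from 9.42 ± 0.48 (SD, n = 3) at E12.5 through 9.22 ± 0.12, 9.14 ± 0.49 and 8.59 ± 0.10 to 7.01 ± 0.27 in the adult.

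Tuba1b fell by 1.57 ± 0.29 (SE) on the log2 scale, or 2.98-fold, from neonatal to adult liver (limma, adjusted p = 0.00130), and adult was 2.41 ± 0.29 lower than E12.5 on the same scale, a log2 difference of -2.41 (limma, adjusted p = 1.26e-05). The steps before did not pass: -0.20 from E12.5 to E14.5 (limma, adjusted p = 0.841), -0.08 from E14.5 to E17.5 (0.907) and -0.56 from E17.5 to neonatal (0.204). With quantile normalization this last step was called (-0.83, limma adjusted p = 0.00270), within the second slide it was -1.03 (0.0972), and without E17.5 replicate 3 it was -0.32 (0.414). The order of its mean levels is that of development, and of the neighbours in it only neonatal and adult passed the test. Neonatal liver was below E12.5 by a log2 difference of -0.83 (limma, adjusted p = 0.0350; 41.9% of all features called in either direction), a call that was lost under 10 of 20 alternatives, for example without E12.5 replicate 1 (-0.56, 0.138). The highest value, on E12.5 replicate 1, stands beside that array's low percentile: its signal there, 155735, was close to the 164307 and 161958 of its companions. The other members had lower signals on that array than on its companions, Rpl13a for example 17563 against 30500 and 33040. The fetal levels of Tuba1b therefore depend on the scaling, and a step that did not pass does not show a constant level. Subtracting each array's mean negative-control signal ended the call from neonatal to adult (-1.57, limma adjusted p = 0.109). Subtracting the median of those controls, tried after seeing that a few bright spots set the mean on E12.5 replicate 1, kept the call. The neonatal and adult arrays share a slide, and within it the difference was -1.57 (limma, adjusted p = 0.00148).

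Transferrin receptor (Tfrc), through which red cell precursors take up iron and the marker of these cells that was measured by name, moved with Tuba1b. Tfrc lay between 8.10 and 9.502 on the 9 fetal arrays, between 7.98 and 8.27 on the neonatal ones and between 5.06 and 5.81 on the adult ones. Its log2 difference of adult against E12.5 was -3.39 (limma, adjusted p = 1.78e-06). The part that a loss of red cell precursors may have in the course of Tuba1b was not tested.

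Rpl13a, the ribosomal protein, was called lower than at E12.5 at E17.5 and in the newborn, and lower again in the adult. The E12.5 arrays had levels of 6.83, 6.73 and 6.84, those of E14.5 had 6.52, 6.48 and 6.57, and those of E17.5 had 5.40, 5.75 and 6.27. It was 5.77, 6.14 and 6.04 on the neonatal arrays and 4.68, 4.74 and 4.88 on the adult ones. The E12.5 and E14.5 arrays were close together and above all later ones, E17.5 and neonatal overlapped, and the adult arrays lay below the rest. The means were 6.80 ± 0.063 (SD, n = 3), 6.52 ± 0.046, 5.81 ± 0.44, 5.98 ± 0.19 and 4.77 ± 0.10 in order of age.

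Rpl13a fell by 1.22 ± 0.23 (SE) on the log2 scale, or 2.32-fold, from neonatal to adult (limma, adjusted p = 0.00161; within their shared slide 0.00352), a call that subtraction of the mean negative-control signal also ended (-1.21, limma adjusted p = 0.139). The log2 difference of adult against E12.5 was -2.03 ± 0.23 (limma, adjusted p = 7.28e-06). From E14.5 to E17.5 the difference was -0.72 ± 0.23, with groups that did not overlap and an adjusted p of 0.0837 (limma), which became 0.0122 without E17.5 replicate 3, the array on the other slide (-0.95). Within the first slide alone, with those same arrays, it was 0.0569, and with slide as a term and without E17.5 replicate 1 the difference was -0.77 (0.112). Over the whole of the fetal stretch, from E12.5 to E17.5, Rpl13a differed by -0.99 ± 0.23 (limma, adjusted p = 0.0100), where 6.90% of all features were called lower. Neonatal against E12.5 gave -0.81 (limma, adjusted p = 0.0130). The former was not called when only its stages were fitted (0.201), nor the latter with each array's median as the scale (-0.87, 0.0721) or without neonatal replicate 1 (-0.71, 0.0543). The first step (-0.27, limma adjusted p = 0.654) and the step over birth (0.18, limma adjusted p = 0.624) did not pass. The step over birth turned to -0.28 within the second slide and to -0.025 without E17.5 replicate 1.

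In the order of its mean levels, E12.5, E14.5, neonatal, E17.5, adult, Rpl13a passed the test between the last neighbours alone, although the arrays of E12.5 and E14.5 did not overlap either. Adult was below E17.5 by a log2 difference of -1.04 (limma, adjusted p = 0.00342), where 35.4% of all features were called in either direction. That call was not kept with each array's median as the scale (-0.95, limma adjusted p = 0.0592), nor when only these stages were fitted (adjusted p = 0.0566). Neonatal and E14.5 did not differ by the test (-0.54, limma adjusted p = 0.0775; 43.0% of features called), although their arrays did not overlap.

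Nono, the paraspeckle protein, had the same order of stage means as Rpl13a with smaller steps. Its levels were 5.47, 6.02 and 6.18 for E12.5, 5.86, 5.68 and 5.78 for E14.5, and 5.01, 5.29 and 6.04 for E17.5. It was 5.53, 5.60 and 5.57 in neonatal liver and 4.84, 5.03 and 5.13 in the adult. The adult arrays lay below all those of E12.5, E14.5 and the newborn, but overlapped E17.5, whose arrays were the widest spread. The means were 5.89 ± 0.37 (SD, n = 3), 5.77 ± 0.089, 5.45 ± 0.53, 5.56 ± 0.036 and 4.998 ± 0.15.

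The log2 difference of adult against E12.5 was -0.89 ± 0.27 (SE) for Nono (limma, adjusted p = 0.0144), and it depended on single arrays. Without E12.5 replicate 3 it was -0.75 (limma, adjusted p = 0.0600) and without adult replicate 1 it was -0.81 (0.0505). No step passed: the values were -0.11 (limma, adjusted p = 0.915), -0.33 (0.507; -0.11 without E17.5 replicate 1 and -0.62 without replicate 3), 0.12 (0.793; -0.47 within the second slide) and, from neonatal to adult, -0.57 (0.144). No neighbours in the order of its means differed by the test either. Neonatal against E14.5, whose arrays did not overlap, gave -0.21 (limma, adjusted p = 0.560) and adult against E17.5 gave -0.45 (0.225). The latter was -1.04 with slide as a term (limma, adjusted p = 0.0202) and -0.15 without E17.5 replicate 3 (0.625). Adult Nono was also called lower than at E14.5 (-0.78, limma adjusted p = 0.0291), where 23% of all features were called lower. That call was not recomputed under the alternatives.

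Hsp90ab1, the chaperone, had its highest mean in the newborn, unlike the other members, but without E12.5 replicate 1 its E12.5 mean was higher. On the E12.5 arrays it had levels of 5.88, 7.06 and 7.10, on the E14.5 arrays 6.34, 6.37 and 6.44, and on the E17.5 arrays 5.77, 5.94 and 6.33. It was 6.66, 6.82 and 7.09 on the neonatal arrays and 5.53, 6.38 and 6.37 on the adult ones. E12.5 replicate 1 and adult replicate 1 lay more than 0.8 below their companions. All 3 neonatal arrays lay above every array of E14.5, E17.5 and the adult. The means were 6.68 ± 0.69 (SD, n = 3), 6.38 ± 0.051, 6.01 ± 0.29, 6.86 ± 0.22 and 6.09 ± 0.49.

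From E17.5 to neonatal liver the log2 difference of Hsp90ab1 was 0.84 ± 0.34 (SE), with an adjusted p of 0.0982 (limma), and from neonatal to adult it was -0.76 ± 0.34 (0.113). Within the second slide the former was 0.53, and without adult replicate 1 the latter was -0.48. The first steps were -0.30 (limma, adjusted p = 0.772; -0.70 without E12.5 replicate 1) and -0.37 (0.547), and adult against E12.5 was -0.58 (0.163). The low signal of E12.5 replicate 1, 9084 against 38471 and 39593 on its companions, weighs on that last value: without this array it was -0.99 (limma, adjusted p = 0.0125). The order of its means was neonatal, E12.5, E14.5, adult, E17.5, and no neighbours in it differed by the test. Neonatal against E12.5 gave 0.18 (limma, adjusted p = 0.706; 41.9% of features called), and -0.22 without E12.5 replicate 1. Adult against E14.5 gave -0.29 (limma, adjusted p = 0.504; 49.6% called) and adult against E17.5 gave 0.08 (0.876), or -0.23 within the second slide.

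Set side by side, no member passed the test at a single step up to the neonatal stage, although Rpl13a and Tuba1b did over longer spans. None of the 4 was called from E12.5 to E14.5, where 4.93% of all features were, from E14.5 to E17.5 (7.11%) or from E17.5 to neonatal (18.1%). The last share rests on E17.5 replicate 3: 6747 features were called with it, 13308 without it and 2265 with slide as a term. From neonatal to adult 2 were called lower, beside 13.3% of all features, and the median change was -0.99 over the members and 0.17 over all features. All 4 had a log2 difference below 0 at that step. In the F test over the 5 stages, Tuba1b (adjusted p = 5.11e-05) and Rpl13a (4.82e-05) passed and Nono (0.0709) and Hsp90ab1 (0.144) did not, in limma's fit, where 61.0% of all features passed. Hsp90ab1 passed without E12.5 replicate 1 (0.0155), and Nono passed under 11 of 28 alternatives.

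**Figure D2:**
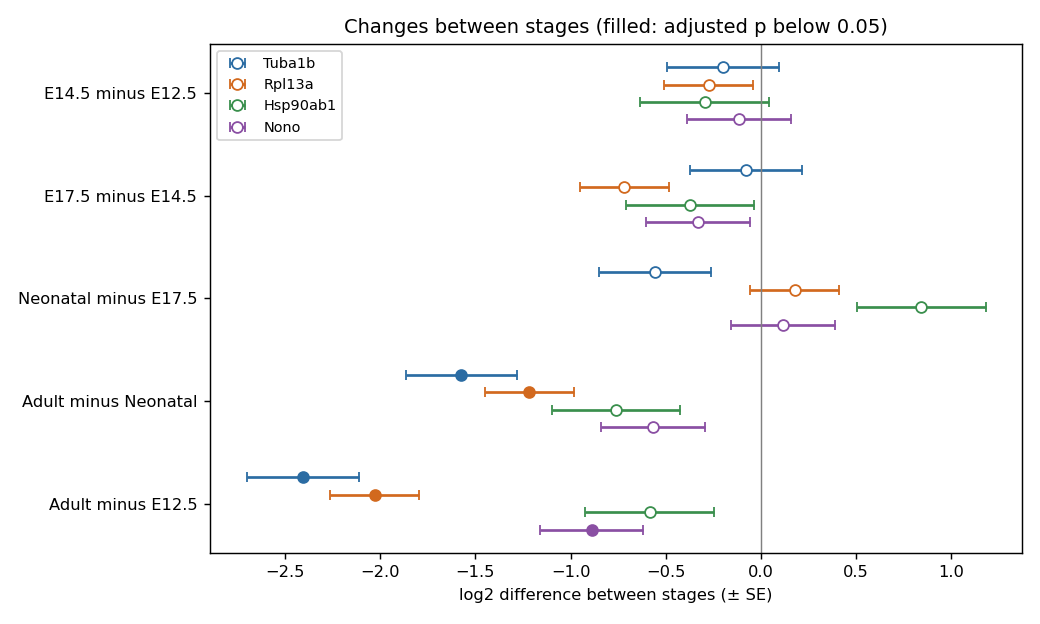
Log2 difference between stages (horizontal axis, ± SE from the fit over 15 arrays) of each gene for the 4 steps and for adult minus E12.5; filled points have an adjusted p below 0.05. The 2 filled points at the step from neonatal to adult are Tuba1b (-1.57) and Rpl13a (-1.22), and Hsp90ab1 lies farthest to the right at the step from E17.5 to neonatal (0.84).

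The members were then set against each other within each array, since such a ratio does not depend on how arrays are scaled. It still takes both probes to respond in proportion to their RNA, which was not tested. On the E12.5 and E14.5 arrays the Tuba1b signal ran only from 155735 to 169587, while that of Hsp90ab1, for example, ran from 9084 to 39593. Only the change of a ratio between arrays has a meaning. All 6 pairs were compared between the 9 fetal and 6 postnatal arrays with an exact two-sided permutation test, adjusted over the 6. The test exchanged arrays freely, although they come in 5 stages of 3, so its p-values treat arrays of a stage as independent. E17.5 replicate 3 was the only fetal array on the second slide, which holds all postnatal arrays. Birth and slide are therefore nearly confounded in these ratios. The ratios of Tuba1b and Rpl13a to Hsp90ab1 were lower on the postnatal arrays. The log2 ratio of Tuba1b to Hsp90ab1 was 2.03 to 4.10 on the fetal arrays and 0.35 to 2.02 on the postnatal ones, a difference of means of -1.58 (exact permutation, adjusted p = 0.00120). The ratio of Rpl13a to Hsp90ab1 was -0.37 to 0.95 before birth and -1.64 to -0.68 after it, a difference of -1.12 (exact permutation, adjusted p = 0.00120). These were the 2 pairs whose fetal and postnatal arrays did not overlap, the first by a narrow gap. The share of other feature pairs that pass this test, or do not overlap, was not computed. Passing is therefore not shown to be particular to the members. Without both arrays that stood apart the differences were -1.41 and -1.04, each with an adjusted exact p of 0.00350.

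For Tuba1b to Hsp90ab1 the E12.5 arrays split: replicate 1 gave 4.10 and the others 2.09 and 2.03, while the E14.5 arrays gave 3.02, 2.76 and 2.73 and the E17.5 arrays 2.87, 3.23 and 3.29. The neonatal arrays gave 2.02, 1.78 and 1.39 and the adult arrays 1.74, 0.35 and 0.67. The drop from E17.5 to the newborn was thus wider than the spread of either stage. The E17.5 array on the second slide gave 3.29, above the postnatal arrays of that slide. Its Rpl13a to Hsp90ab1 ratio, -0.06, also lay above theirs. But its Rpl13a to Nono ratio, 0.23, was the lowest of the fetal arrays and just under the neonatal range. Its Hsp90ab1 to Nono ratio, 0.29, was the lowest of all arrays. For Tuba1b to Hsp90ab1 the E12.5 values of 2.09 and 2.03 lay next to the neonatal 2.02, and a single array cannot tell stage from slide.

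Relative to Nono, Tuba1b changed by -1.04 after birth (exact permutation, adjusted p = 0.00400), Rpl13a by -0.58 (0.00959) and Hsp90ab1 by 0.54 (0.00480), all on the log2 scale and with overlapping arrays. For Rpl13a to Nono the shift lay mostly in the adult: the neonatal ratios, 0.24 to 0.55, overlapped those of E17.5, 0.23 to 0.46, and the adult ratios were -0.29 to -0.16. With E17.5 as the only fetal stage the Rpl13a to Nono difference was -0.26 (exact permutation, adjusted p = 0.381) and the Hsp90ab1 to Nono difference 0.63 (0.0571). Tuba1b to Rpl13a changed by -0.46 (exact permutation, adjusted p = 0.0408; -0.91 and 0.0357 with E17.5 as the only fetal stage), and lost its call under 12 of 21 alternatives, for example without adult replicate 2 (-0.38, 0.0959). Its ratio was highest at E17.5, 3.24 to 3.42, above the arrays of every other stage.

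**Figure D3:**
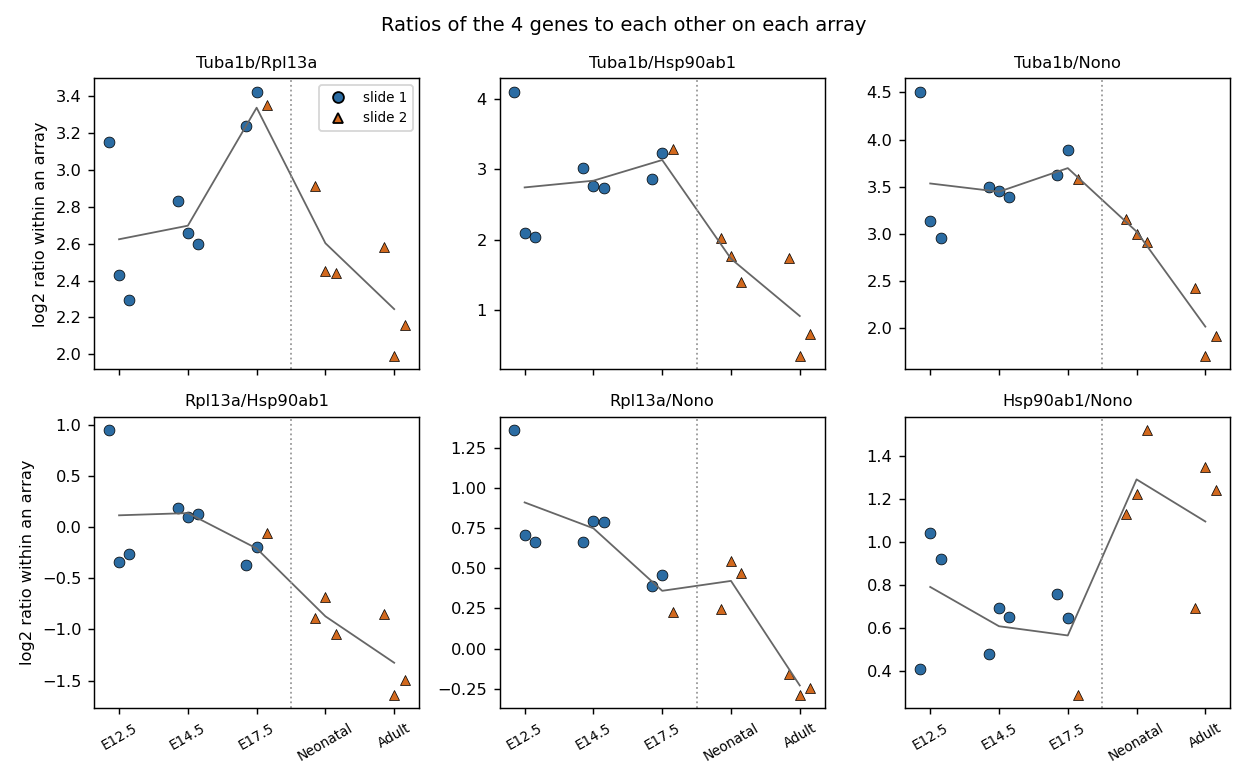
Log2 ratio of 2 genes within each array (vertical axis) by stage for the 6 pairs, with circles for slide 1, triangles for slide 2, a line through the stage means and a dotted line at birth; the vertical axes differ and do not start at 0. In Tuba1b/Hsp90ab1 the triangle at E17.5 (3.29) lies above the neonatal triangles (1.39 to 2.02), and the lowest circles at E12.5 (2.03 and 2.09) lie just above them.

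Over the 15 arrays, the levels of Tuba1b and Rpl13a had a Pearson r of 0.89, Rpl13a and Nono of 0.87 and Tuba1b and Nono of 0.71. Hsp90ab1 had 0.67 with Nono, 0.45 with Rpl13a and 0.12 with Tuba1b. These describe arrays that share slides, stages and scaling. Among 74 other features with a gene symbol, those most like Tuba1b were Tfrc (r = 0.98), Ccdc82 (0.97) and the histone gene H2ac23 (0.96). Those most like Rpl13a were Gm4312 (0.96), the histone gene H2ac19 (0.92) and Tbp, the TATA-binding protein (0.90). Nono was most like Tbp (0.95), Rpl13a (0.87) and Gm4312 (0.80), and Hsp90ab1 like Nono (0.67), the actin gene Actb (0.62) and Zf12 (0.54).

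Beside the 4 members, the 11 other probes with 20 spots moved both ways between E12.5 and adult liver: 2 were called lower and 3 higher. They ran from Tfrc at -3.39 to Gk, glycerol kinase, at 3.65 (limma, adjusted p = 1.15e-07). Tuba1b and Rpl13a, at -2.41 and -2.03, had lower values than all of these but Tfrc.

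**Figure D4:**
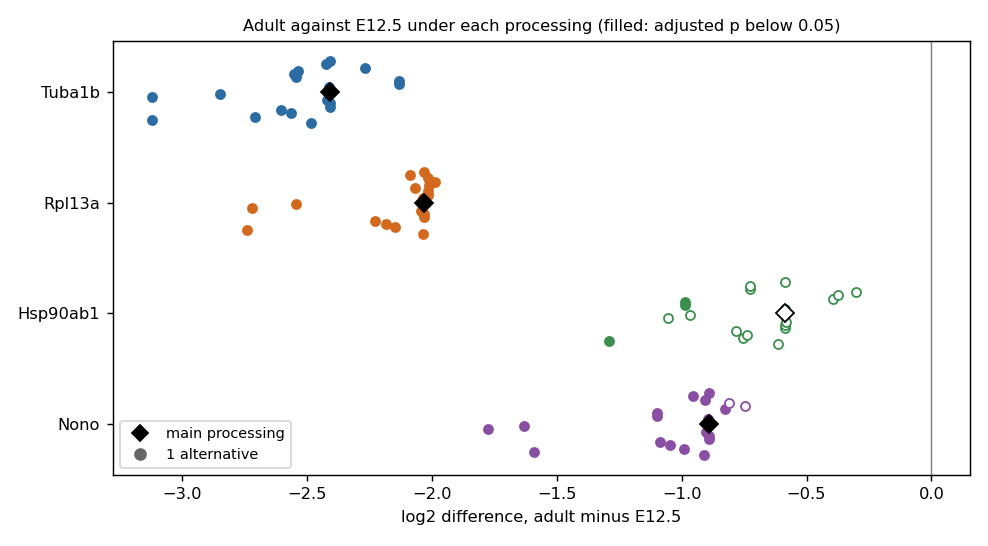
Log2 difference of adult minus E12.5 for each gene under the processing used here (diamond) and under each alternative (circles, spread vertically for view); filled symbols have an adjusted p below 0.05. All symbols of Tuba1b (-3.12 to -2.13) and Rpl13a (-2.74 to -1.98) are filled, 2 of Nono and most of Hsp90ab1 are open, and all lie below 0.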

How the data were processed

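Per the labels, total RNA was freed of ribosomal RNA, amplified by random priming and labelled with Cy3. The deposited scanner files of the 15 arrays give intensity per spot as Agilent Feature Extraction's processed signal (version 11.0.1.1 per the file headers, 10.7.3.1 per the submitters' processing notes). The files record a further signal adjustment, multiplicative detrending, for E17.5 replicate 3, all neonatal arrays and adult replicates 1 and 3. They record none for the other arrays, so the processed signal may not have been computed alike on all. What this did to the members was not tested. The deposited table of log2 values lists none of the members and was not used for them. The columns of other kind in the deposited files, such as flags and probe names, gave the spot filter and the identity. Outlier spots and control spots were left out, spots averaged per probe, and log2 values centred on each array's 75th percentile. A feature entered the test if every array of some stage had it well above background, which held for 37357 of 59705. limma 3.58.1 (R 4.3.3) was fitted once with a mean per stage, and p-values adjusted by Benjamini-Hochberg per comparison, with a threshold of 0.05. The fit was tested on simulated data, with changes made larger after a first run missed many of the smaller ones, so a difference that did not pass is not shown to be absent. Ratios were tested in SciPy 1.17.1. The named genes are the 4 members, the extremes of the other 20-spot probes, and per member the 3 symbols with the highest Pearson r. For normexp (offset 50) the spots' median signal was used. The members and lists were chosen with earlier results of these data known. The number of arrays limits the precision.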

Additional observations from a re-analysis of the deposited data

How the results depend on the processing

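Of 858 values recomputed for 40 results, 749 kept their direction and their side of the threshold, 33 changed sign, 39 lost and 37 gained a call. The calls of Tuba1b and Rpl13a for adult against E12.5 and in the F test, and the negative sign of Nono and Hsp90ab1 for adult against E12.5, held under every alternative run. Causes were not tested, and p-values here are limma's, adjusted, or exact for ratios.

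For Tuba1b, quantile normalization turned the first step to 0.033 and called the step over birth (-0.83); leaving out both first replicates of E12.5 and E17.5, chosen after seeing the data, gave 0.078, 0.18 and -0.81 for the first 3 steps, the last called. Neonatal against E12.5 lost its Tuba1b call with the negative-control mean (-1.55), median scaling (-0.89), no filter or only these stages fitted (-0.83), slide without E17.5 replicate 1 (-1.28) and without both first replicates (-0.56). The negative-control mean left -1.57 for neonatal to adult uncalled. For Rpl13a, E14.5 to E17.5 was called with normexp (-0.76), quantile normalization (-0.62), scaling to the other 20-spot probes (-0.91) and slide as a term (-0.95). Its step over birth was -0.068 with quantile normalization, -0.28 with slide as a term (with or without E17.5 replicate 1) and within slide 2, and -0.025 without both first replicates. Neonatal against E14.5 was called for Rpl13a with normexp (-0.55), quantile normalization (-0.68), 20-spot scaling (-0.76), slide (-1.23), and, at -0.54, without both first replicates and with only these stages fitted. Adult against E17.5 lost its call for Rpl13a with the negative-control mean (-1.08), median scaling (-0.95) and only these stages fitted (-1.04). Fitting only these stages left E17.5 against E12.5 uncalled for Rpl13a (-0.99), and median scaling neonatal against E12.5 (-0.87). The negative-control mean left Rpl13a uncalled from neonatal to adult (-1.21).

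For Hsp90ab1, adult against E12.5 was called with the negative-control mean (-1.29) and without both first replicates (-0.99), which also called neonatal to adult (-0.76); the F test passed with both (0.0420 and 0.0254). Neonatal against E12.5 turned with the negative-control mean (-0.53), 20-spot scaling (-0.11), slide (-0.29; -0.21 also without E17.5 replicate 1) and without both first replicates (-0.22). Adult against E17.5 turned with quantile normalization (-0.29), slide, also without E17.5 replicate 1, and within slide 2 (-0.23), and without both first replicates (-0.040). For Nono, quantile normalization turned the first step to 0.031. Its step over birth became -0.14 with quantile normalization, -0.47 with slide and within slide 2, and -0.10 without both first replicates. Adult against E17.5 was called with quantile normalization (-0.78), slide and within slide 2 (-1.04), and without both first replicates (-0.67). The Nono F test passed with normexp (0.0229), quantile normalization (0.0156), 20-spot scaling (0.0166), the filter on all arrays (0.0464), slide (0.0158; 0.0443 without E17.5 replicate 1), the negative-control median (0.0456) and without both first replicates (0.0128).

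Leaving out 1 array of the stages compared moved Tuba1b from -0.34 to 0.078 (first step) and from -0.32 to 0.18 (second), from -0.81 to -0.32 (birth) and from -0.98 to -0.56 (neonatal against E12.5). It moved Rpl13a from -0.95 to -0.51 (E14.5 to E17.5) from -0.025 to 0.41 (birth) and from -0.89 to -0.71 (neonatal against E12.5). It moved Hsp90ab1 from -0.70 to -0.085 (first step), from -0.53 to -0.25 (second), from -0.90 to -0.48 (neonatal to adult), from -0.43 to -0.0063 (adult against E14.5), from -0.99 to -0.30 (adult against E12.5), from -0.22 to 0.39 (neonatal against E12.5), from -0.061 to 0.37 (adult against E17.5) and from 0.0155 to 0.284 (F test). It moved Nono from -0.32 to 0.031 (first step), from -0.62 to -0.11 (second), from -0.67 to -0.15 (adult against E17.5), from -0.10 to 0.41 (birth), from -1.10 to -0.75 (adult against E12.5) and from 0.00853 to 0.201 (F test). It moved Tuba1b/Rpl13a from -0.56 to -0.38.

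The number of features called moved too. From E12.5 to E14.5, 1843 became 673 without E14.5 replicate 1 and 3004 with normexp. At the next step 2655 became 462 with the negative-control mean. Over birth 6747 became 1609 with the negative-control mean and 13308 without E17.5 replicate 3. From neonatal to adult 9662 became 3878 with the negative-control mean and 13149 within slide 2. For adult against E12.5, 18978 became 10054 with slide and without E17.5 replicate 1.

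The Tuba1b/Rpl13a ratio lost its call without E17.5 (-0.24) and without both first replicates (-0.37); with only E17.5 as fetal stage, Rpl13a/Nono (-0.26) and Hsp90ab1/Nono (0.63) lost theirs. Same-numbered arrays of different stages deviated from their stage means with correlations of -0.24 to 0.48 (median 0.01), so the numbers were not taken as pairs. With the replicate number as a block, the Hsp90ab1 step over birth was called (0.84, adjusted p = 0.0445). The sign-flip test over the 3 numbers left the ratios at -0.46, -1.58, -1.04, -1.12, -0.58 and 0.54, all at its smallest p of 0.25. The block changed no other call. The authors' table could not be used as an alternative, since none of the repeated probes is in it. No slide holds both E12.5 and adult arrays, so that difference has no value within a slide.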
